A study of Danio rerio with 2 samples.

Results

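Cathepsins, the subunits of the vacuolar proton pump, the lysosome-associated membrane proteins and the lysozyme lygl1 were followed through the cell groups of the regenerating larval zebrafish caudal fin. The genes were taken by name: every symbol made of cts, a letter and a suffix, every symbol that begins with atp6v or lamp, and lygl1. This gave 39 of the 15411 genes in the deposited gene list. They comprised 16 cathepsins, 11 subunits of the V1 sector and 8 of the V0 sector of the pump, 3 LAMP genes and lygl1. Of these, 32 had at least 50 unique molecular identifiers (UMIs, counted transcript molecules) over both libraries, 6 had between 1 and 49, and ctslb had 0.

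Lysosomes are acidic organelles in which proteins, lipids and sugars taken up from outside or recycled from within the cell are broken down. Cathepsins are their proteases, most of them cysteine proteases, and some also act outside the cell on the extracellular matrix. The vacuolar proton pump (V-ATPase) acidifies the organelle: its V1 sector splits ATP and its membrane-bound V0 sector moves the protons, while LAMP proteins line the lysosomal membrane. Phagocytes such as macrophages and neutrophils depend on this machinery to digest microbes and dead cells, and g-type lysozymes cleave bacterial cell walls.

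The study compared caudal fins of zebrafish larvae collected 24 hours after amputation (cut) with intact caudal fins (uncut) by droplet single-cell RNA sequencing of 3′ transcript ends. Fins of many larvae were pooled into 1 library per condition, so every cut to uncut difference below is a difference between 2 libraries without a replicate, and no p-value was computed. In the cut library 7376980 UMIs came from 762 cells (7699.5 in the median cell). In the uncut library 10458222 UMIs came from 878 cells (10476.5 in the median cell), and the libraries shared 0 cell barcodes. The labels give both libraries as larval caudal fin under the same protocol apart from the amputation, and the study's methods name AB as its wild-type strain without tying it to these libraries.

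Cells were clustered without the 39 genes, and clusters were named from marker genes. The myeloid group, with 10 of 10 detected myeloid markers raised, held 36 cut and 11 uncut cells, or 4.72% (exact binomial 95% interval 3.33 to 6.48) and 1.25% (0.627 to 2.23) of the cells. Superficial epidermis, the outer layer of the fin skin, held 373 and 214 cells in 5 clusters. Basal epidermis held 71 and 125 cells, the apical epithelial cap, the specialised epidermis at the fin edge, 18 and 35, and mesenchyme, the connective tissue of the fin fold, 43 and 124. Clusters that stayed unnamed, some with mesenchyme or superficial epidermis markers raised, lay outside these groups. Depth differed within groups: the median cut and uncut cell had 2605.5 and 4221 UMIs in the myeloid group, 10859 and 16423 in superficial epidermis, and 2679 and 13236 in basal epidermis. The myeloid groups also differed in make-up. Neutrophil markers summed to 813 UMIs per 1000000 UMIs of the group (UPM) in cut and 9265 UPM in uncut myeloid cells, where a single cell carried 591 UMIs of lyz, and superficial epidermis markers summed to 5962 UPM in cut and 181 UPM in uncut myeloid cells, with 1 cut cell carrying 1051 UMIs of krt4. Macrophage markers were closer, at 4008 and 3149 UPM.

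Most of these genes had their highest level in the myeloid group. Among the 31 genes with at least 50 UMIs in the 5 groups of the cut library, 24 were highest in myeloid cells, and for 23 of them the Poisson 95% interval lay above that of the next group. The other 7, atp6v0a1a, atp6v1e1a, ctsf, ctsk, ctsla, lamp1b and lamp2, were highest in the apical epithelial cap. Only 2 of these 7, ctsla and lamp2, had an interval above that of the next group. This check covered the next group only, and the lamp2 interval in the cap (88.1 to 223 UPM) overlapped that in myeloid cells (36.0 to 110 UPM). In the uncut library 25 of 31 were highest in myeloid cells, 19 of them with an interval above that of the next group. Among the 19, the atp6v0b interval (62.2 to 223 UPM) still touched that of the lower ranked cap (15.1 to 62.6 UPM). The exceptions there were ctsf, ctsla and lamp2 in superficial epidermis, atp6v1e1a and lamp1b in the apical epithelial cap and ctsk in mesenchyme. Of these only ctsla had a separate interval. The same count was not made over all genes, so these numbers stand without a background share. All 39 genes together took 28872 UPM of the cut and 13920 UPM of the uncut myeloid transcripts, against 3083 and 4262 UPM in superficial epidermis, 1344 and 1535 UPM in basal epidermis, 6441 and 3026 UPM in the apical epithelial cap, and 2004 and 1427 UPM in mesenchyme. Single genes weighed on these sums. In myeloid cells ctsl.1 took 7076 and 1484 UPM and lygl1 5596 and 2163 UPM, and in the cap ctsla took 3419 and 1271 UPM. A 3′ UMI is counted once per molecule whatever the transcript's length, so no length correction was made. Differences between genes in how fully their reads were captured and assigned were not tested, and they limit comparisons of level between genes.

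**Figure D1:**
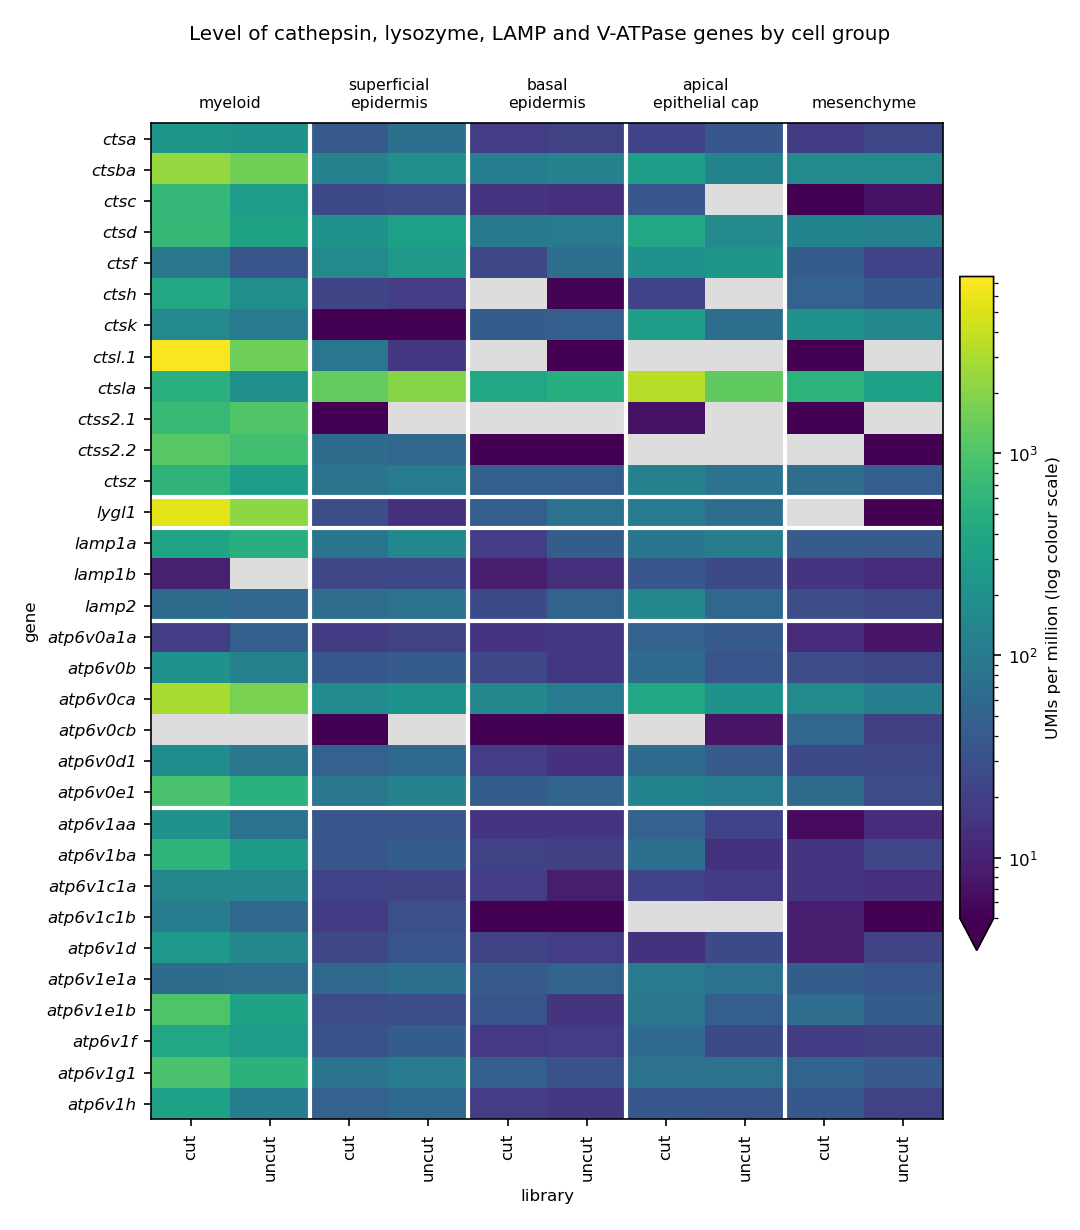
Level of the 32 genes with at least 50 UMIs, in UPM on a log colour scale, by cell group and library (columns), with genes ordered by family (rows) and grey for 0 UMIs. The myeloid columns are brightest for most genes, while ctsla is bright in superficial epidermis and in the apical epithelial cap, where it reached 3419 UPM in the cut library.

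Set against superficial epidermis of the same library, the myeloid group had 25 of 31 tested genes at least 2-fold higher and 2 lower in the cut library. Of all 4912 genes tested there, 15.5% were higher and 31.4% lower. In the uncut library 21 of 30 were higher and 3 lower, against 14.3% and 37.8% of 4063 genes. The median log2 ratio of the 39 genes was 2.79 in cut and 1.90 in uncut cells, beside -0.18 and -0.41 over all genes. The steepest gradients belonged to ctss2.1, a cathepsin S gene (in mammals a protease of antigen presentation), at 460-fold in the cut library, to lygl1 at 196-fold and to ctsl.1, a cathepsin L gene, at 79.9-fold. In the uncut library ctss2.1 had 92 UMIs in myeloid cells and 0 in superficial epidermis, which makes it at least 1256-fold higher against a floor of 3 counts over the group. Next in the cut library came ctsk, a matrix-degrading cathepsin of mammalian osteoclasts (42.8-fold, on 33 and 17 UMIs), and atp6v1e1b, a stalk subunit of the pump (36.4-fold). Log2 ratios between 4.08 and 4.68 followed for ctsc, which activates granule proteases in mammals, the aminopeptidase ctsh, the cathepsin B gene ctsba, the proton-carrying ring subunit atp6v0ca and the second cathepsin S gene, ctss2.2. At the other end, ctsla, a second cathepsin L gene, was lower in myeloid cells than in superficial epidermis, by a log2 ratio of -1.30 (counting interval -1.58 to -1.03) in cut and -3.38 in uncut cells. In cut cells lamp1b stood at -1.37 on 2 myeloid UMIs, with a counting interval of -4.43 to 0.52 that included 0. In uncut myeloid cells lamp1b had 0 UMIs, with an upper limit of 0.79, so it is not clearly lower in either library. In cut cells ctsf, another cysteine cathepsin, was at -0.75, lamp2 at -0.06 and the V0 subunit atp6v0a1a at 0.09. In the uncut library ctsf was called lower, at -2.91 (-5.19 to -1.36) on 3 myeloid UMIs. Paralogs such as ctsl.1 and ctsla, or ctss2.1 and ctss2.2, share sequence, and reads common to both could have been assigned to either or dropped.

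The cathepsin pool had a different composition in each group. In cut myeloid cells ctsl.1 made up 48.5% (46.7 to 50.3) of 3104 cathepsin UMIs and ctsba 16%, whereas in uncut myeloid cells ctsba was first with 23.8% (20.4 to 27.5) of 583, ctsl.1 second with 22.5% (19.1 to 26.1) and ctss2.1 next with 15.8%. In the other 4 groups ctsla led in both libraries. It made up 60.5% and 65.7% of the cathepsin UMIs of cut and uncut superficial epidermis, 52.7% and 54.0% in basal epidermis, 71.0% and 63.9% in the apical epithelial cap, and 44.7% and 37.0% in mesenchyme. Mesenchyme held a larger ctsk share than the epidermal layers, 16.9% of its cathepsin UMIs in cut and 16.7% in uncut cells.

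**Figure D2:**
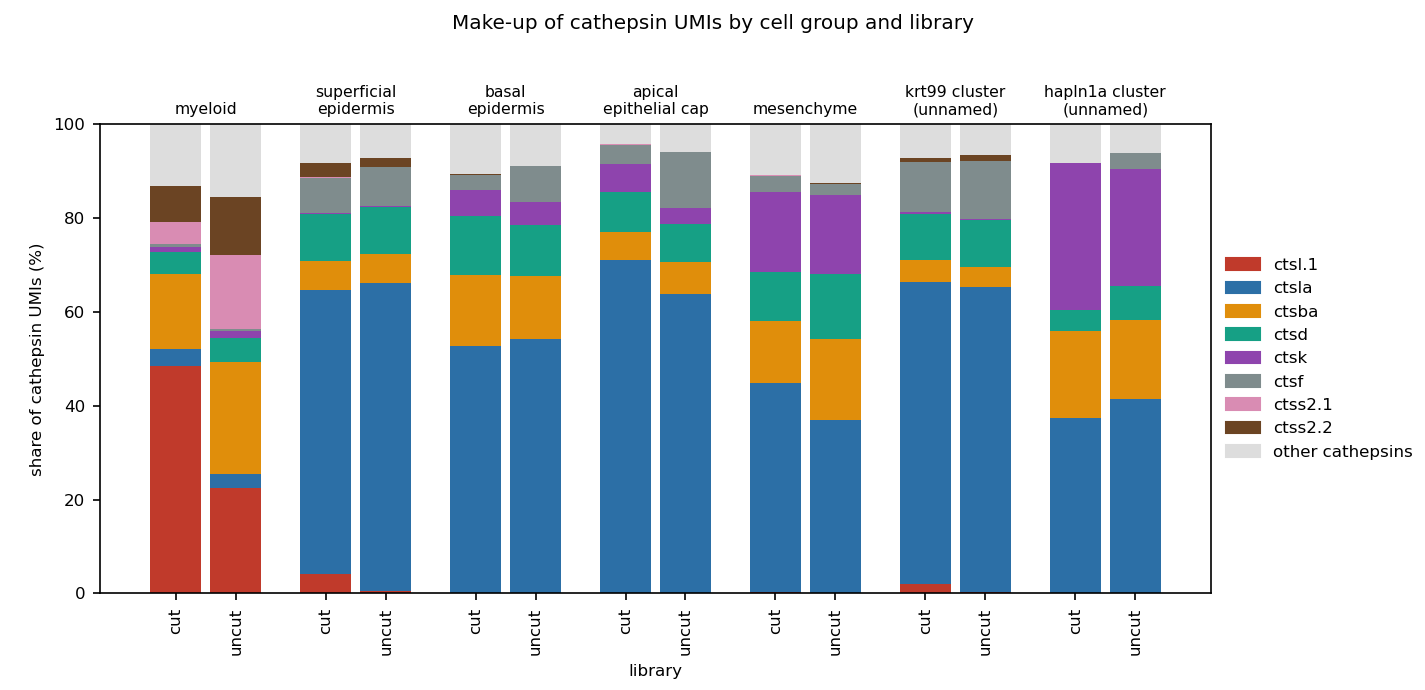
Share of each cathepsin in the summed cathepsin UMIs of a cell group and library, in percent, stacked to the whole, with a pair of unnamed clusters at the right. The ctsl.1 segment fills 48.5% of the cut and 22.5% of the uncut myeloid bar, and the ctsla segment is the largest in each of the other bars.

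In the myeloid group most of the proteases and proton pump subunits tested were higher in the cut library. Of 22 genes tested (at least 50 UMIs over both libraries), 20 had a log2 cut to uncut ratio above 0, 9 were at least 2-fold higher and 0 were lower. Over all 645 genes tested in these cells 17.5% were 2-fold higher and 3.57% lower, so the background itself leaned toward the cut library, with 63.9% of ratios above 0 and a median of 0.29. The median of the 22 genes was 0.88. All 10 tested V-ATPase subunits were above 0, with a median of 0.78. Of the 10 tested cathepsins 9 were above 0, with a median of 0.99.

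ctsl.1 had 7076 UPM (Poisson 95% interval 6723 to 7443; 1506 UMIs) in cut and 1484 UPM (1241 to 1761; 131 UMIs) in uncut myeloid cells, a log2 ratio of 2.25 (2.0 to 2.52). It was seen in 32 of 36 cut and 10 of 11 uncut cells. Single cells ran from 0 through a median of 2053 UPM to 67099 UPM in the cut library, and from 0 through 1003 UPM to 4090 UPM in the uncut library. The ranges overlapped, yet 15 of the 36 cut cells exceeded every uncut cell and held 1304 of the 1506 UMIs. The cell with most ctsl.1 carried 28.4% of the cut UMIs. In the uncut library 1 cell held 60 of the 131 UMIs.

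lygl1 had 5596 UPM (5283 to 5923; 1191 UMIs) in cut and 2163 UPM (1867 to 2493; 191 UMIs) in uncut myeloid cells, a log2 ratio of 1.37 (1.15 to 1.6). It was spread more evenly over the cut cells than ctsl.1: 35 of 36 lay above the uncut median of 948 UPM, and 8 above the highest uncut cell at 8457 UPM. In the uncut library the cell with most ctsl.1 also held 145 of the 191 lygl1 UMIs. With the top cell of each library left out the log2 ratio of lygl1 was 2.98. With the cells that carried mpx, the neutrophil myeloperoxidase, or over 100 UMIs of krt4 left out, the ratios were 2.23 for ctsl.1 and 1.35 for lygl1. The 3 cut cells with mpx held 2 UMIs of ctsl.1 and 15 of lygl1, and the 1 uncut cell with mpx had 0 of both.

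The other cathepsins called higher in myeloid cells were ctsla (522 against 193 UPM, log2 ratio 1.44, 0.69 to 2.27), ctsc (648 against 283 UPM, 1.2) and ctsh (418 against 193 UPM, 1.12). In ctsc, 17 of the 25 uncut UMIs came from 1 cell. The aspartic protease ctsd, at 677 against 340 UPM (0.99), and the carboxypeptidase ctsz, at 583 against 294 UPM (0.98), lay just under 2-fold. ctsba stood at 2335 against 1574 UPM (0.57, 0.29 to 0.85) and ctss2.2 at 1132 against 816 UPM (0.47, 0.09 to 0.87). ctss2.1 had the opposite sign, with 686 UPM in cut and 1042 UPM in uncut cells (-0.60, -0.99 to -0.21), under the 2-fold limit. The remaining gene with a negative ratio was lamp1a, a LAMP1 gene, at 357 against 510 UPM (-0.51, -1.06 to 0.05), with 31 of its 45 uncut UMIs in 1 cell. Without the top cell of each library lamp1a was at 0.79, and with cells weighted equally at 0.39.

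On the pump side 7 V1 and 3 V0 subunits could be tested. All 3 V0 ratios were above 0 but under 2-fold, with a median of 0.77. A difference between the sectors was not tested. The 4 subunits called higher all belonged to V1. They were the regulatory subunit atp6v1h (329 against 113 UPM, log2 ratio 1.54, 0.57 to 2.66), the stalk subunit atp6v1e1b (1001 against 351 UPM, 1.51, 0.96 to 2.1), the catalytic subunit atp6v1aa (207 against 79.3 UPM, 1.38, 0.22 to 2.78) and its nucleotide-binding partner atp6v1ba (578 against 272 UPM, 1.09, 0.45 to 1.78). For atp6v1h 20 of 36 cut cells exceeded the highest uncut cell at 292 UPM, but the uncut level rested on 10 UMIs. The cut cells had a median of 1 UMI and 370 UPM, and 15 of them had 2 or more UMIs. Some of the 20 thus passed the uncut maximum on 1 UMI, as the cut cells were shallower. For atp6v1aa the uncut level rested on 7 UMIs. The most abundant subunit, atp6v0ca, was at 2960 against 1722 UPM (0.78, 0.52 to 1.05), with 92 of its 152 uncut UMIs in 1 cell. That cell also held the most uncut ctsl.1 and lygl1. The median cell stood at 3107 UPM of atp6v0ca in cut and 716 UPM in uncut cells. In summed UPM the V0 subunit atp6v0e1 (907 against 532 UPM, 0.77) and the stalk subunit atp6v1g1 (921 against 555 UPM, 0.73) had similar ratios.

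**Figure D3:**
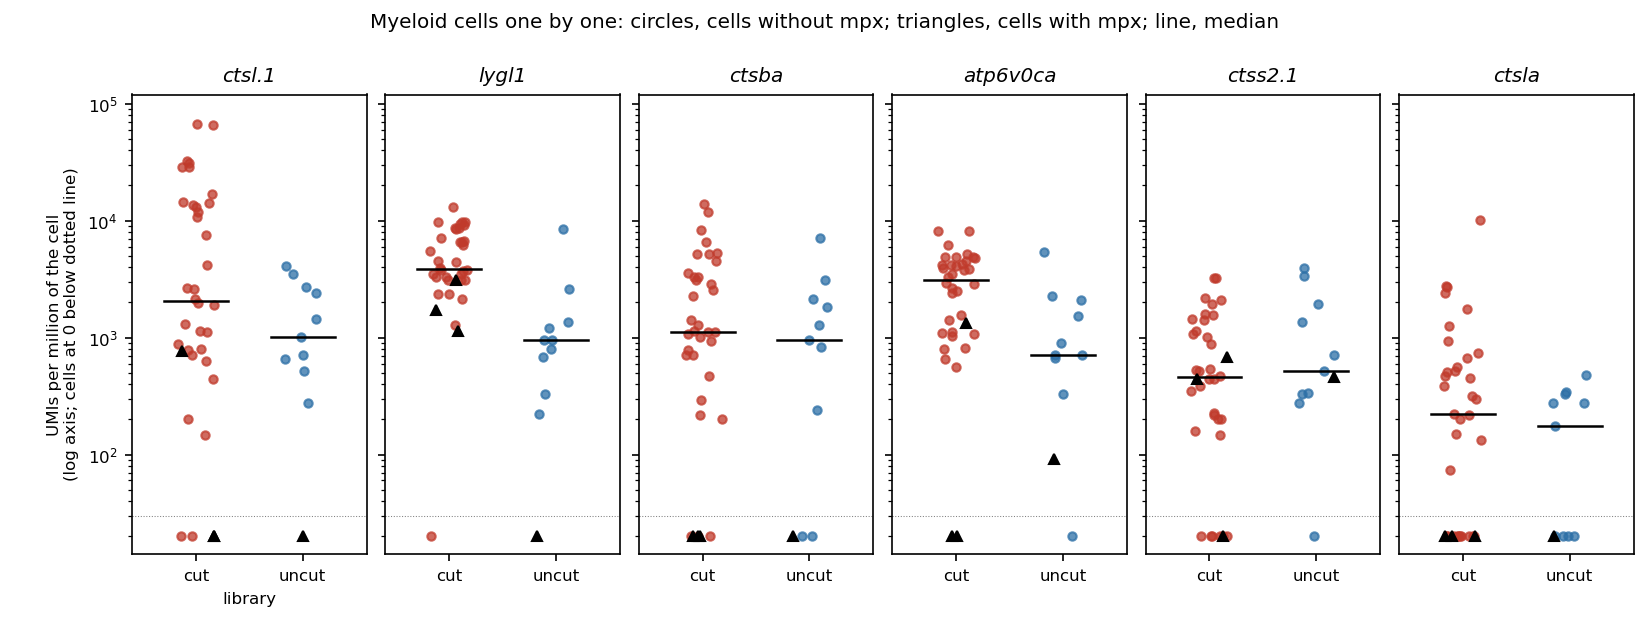
Each myeloid cell's level of 6 genes in UPM of the cell (log axis, cells at 0 below the dotted line), for 36 cut and 11 uncut cells, with a line at the median and triangles for cells with mpx. Cut cells reach 67099 UPM of ctsl.1 against at most 4090 UPM in uncut cells, while the ctss2.1 points overlap throughout.

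In superficial epidermis 25 of 29 genes tested had lower levels in the cut library. The 4 above 0 were ctsl.1 and lygl1, both at least 2-fold higher, and ctsh (0.28, -0.17 to 0.74) and ctss2.2 (0.18, -0.07 to 0.44), whose intervals included 0. None was 2-fold lower, and the median log2 ratio was -0.29. Over all 5755 genes tested 67.5% had a ratio above 0, 2.66% were 2-fold higher, 0.487% were lower, and the median was 0.13. All 15 tested V-ATPase subunits had lower levels in the cut library, by a median of -0.30, and none by 2-fold. Of these, atp6v1aa, atp6v1c1a and atp6v1e1b lay between -0.09 and -0.01 and changed sign under some of the alternatives. The lowest ratios were those of the carboxypeptidase ctsa (40.2 against 74.4 UPM, -0.89), lamp1a (86.2 against 154 UPM, -0.84), the V1 subunit atp6v1c1b (-0.75) and ctsf (158 against 255 UPM, -0.69). This group left out a cluster led by gap43 and krt99, with 61 cut and 109 uncut cells, which stayed unnamed. That cluster had 8 of 10 superficial epidermis markers raised, and its V-ATPase subunits summed to 1119 UPM in cut and 1135 UPM in uncut cells. In the superficial epidermis group the sums were 758 and 942 UPM. The make-up of that group differed too, as its cluster led by zgc:153932 held 94 cut and 17 uncut cells. Its own markers summed to 74312 and 83181 UPM, neuromast markers to 1396 and 891 UPM, ionocyte markers to 718 and 417 UPM and mesenchyme markers to 90.5 and 462 UPM. The part of these markers in the ratios was not tested.

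ctsla, the main epidermal cathepsin, had 1281 UPM (1249 to 1314) in cut and 2001 UPM (1956 to 2048) in uncut superficial epidermis, a log2 ratio of -0.64 (-0.69 to -0.59). It was lower in the cut library in all 5 superficial clusters, for example 2154 against 3072 UPM in the cluster led by cyp1a, 3916 against 4871 UPM in that led by pkhd1l1 and 509 against 832 UPM in that led by ponzr3. In the unnamed cluster led by gap43 ctsla was at 1968 against 2237 UPM. The other abundant members were also lower without reaching 2-fold: ctsd (212 against 307 UPM, -0.53), ctsba (132 against 185 UPM, -0.49), atp6v0e1 (94.3 against 127 UPM, -0.43) and atp6v0ca (173 against 214 UPM, -0.31, -0.45 to -0.16).

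**Figure D4:**
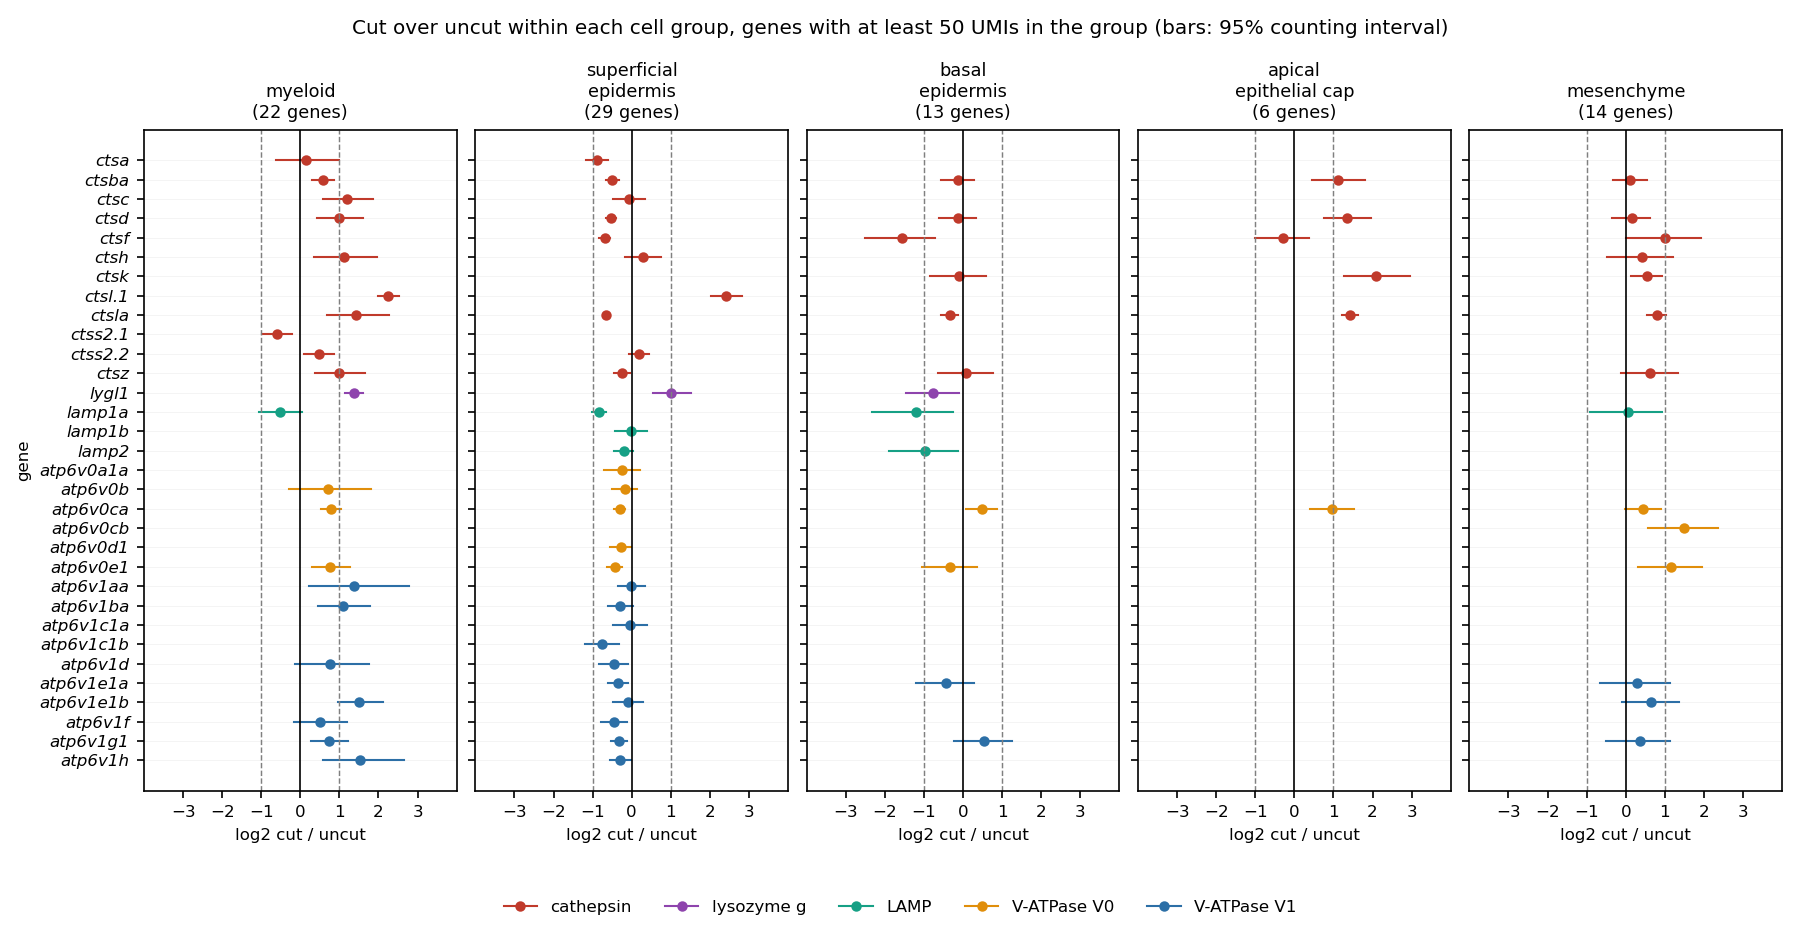
Log2 ratio of UPM, cut over uncut, for each gene with at least 50 UMIs in the cell group (points) with its 95% counting interval (bars), coloured by family, with dashed lines at 2-fold. In myeloid cells 20 of 22 points lie right of 0, in superficial epidermis 25 of 29 lie left of 0, and in mesenchyme 14 of 14 lie right of 0.

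ctsl.1 in superficial epidermis was higher in the cut library, at a low level: 88.5 UPM (80.2 to 97.5; 416 UMIs in 118 of 373 cells) in cut and 16.6 UPM (12.7 to 21.4; 60 UMIs in 35 of 214 cells) in uncut cells, a log2 ratio of 2.42 (2.02 to 2.83). It was higher in the cut library in each of the 5 clusters, at 237 against 25.5 UPM in the pkhd1l1 cluster, 206 against 27.1 UPM in the cyp1a cluster, 71.1 against 9.94 UPM in the zgc:153932 cluster, 38.7 against 18.2 UPM in the si:dkey-7c18.24 cluster and 21.1 against 5.62 UPM in the ponzr3 cluster. The uncut values rested on 4 UMIs in the pkhd1l1, 4 in the zgc:153932 and 5 in the ponzr3 cluster. In the ponzr3 cluster the intervals overlapped (13.07 to 32.27 and 1.82 to 13.10 UPM). The cyp1a cluster held 209 of the 416 cut UMIs, 46 of them in 1 cell. With each cell thinned to 2000 UMIs, 9.37% (6.57 to 12.8) of 363 cut cells and 4.67% (2.26 to 8.43) of 214 uncut cells had a ctsl.1 UMI, and these intervals overlapped. Without thinning the shares were 31.6% and 16.4%. At the thinned depth the share was 0 in basal epidermis, the apical epithelial cap and mesenchyme of both libraries, with upper limits of 6.60% and 2.91% in cut and uncut basal epidermis.

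Markers of myeloid cells moved with this result. In cut superficial epidermis mfap4 had 9 UMIs, mpeg1.1 3, lcp1 4 and coro1a 17, and in uncut superficial epidermis each had 0. Of other myeloid markers, il1b had 44 UMIs in cut and 2 in uncut superficial epidermis, and spi1b had 14 and 0. The 10 detected myeloid markers summed to 91.7 UPM with 9 of them present in cut, and to 42.6 UPM with 4 present in uncut superficial epidermis. The oxidase subunit gene cyba supplied 337 of the 431 cut and 149 of the 154 uncut UMIs of that sum, and was seen in 49.1% and 44.9% of the superficial epidermis cells. For each UMI of mfap4, mpeg1.1 and lcp1 together there were 26.0 UMIs of ctsl.1 in cut superficial epidermis and 1.47 in cut myeloid cells. The first value rests on 16 UMIs of these 3 markers, and coro1a, the most counted of the 4, is not in it. With the 11 cut cells that carried mfap4, mpeg1.1, lcp1 or coro1a left out, ctsl.1 stood at 69.4 UPM (61.9 to 77.5; 111 of 362 cells), a log2 ratio of 2.06 (1.66 to 2.49).

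lygl1 in superficial epidermis was at 28.5 UPM in cut and 14.1 UPM in uncut cells, a log2 ratio of 1.02 (0.54 to 1.51) that sat on the 2-fold limit. The ratio was 0.74 (0.25 to 1.25) without the 11 cells and 0.93 without the top cell of each library, both under that limit. By cluster lygl1 was at 41.4 against 10.6 UPM (cyp1a), 33.0 against 17.4 UPM (zgc:153932) and 49.9 against 0 UPM (pkhd1l1, 8 cut UMIs). In the zgc:153932 and pkhd1l1 clusters the intervals overlapped. The level was similar in the si:dkey-7c18.24 (17.3 against 15.2 UPM) and ponzr3 clusters (16.1 against 16.8 UPM). Its pattern over the groups differed from that of ctsl.1. Basal epidermis had 24 UMIs of lygl1 and 0 of ctsl.1 in the cut library, and 117 and 1 in the uncut library. The apical epithelial cap had 14 and 19 UMIs of lygl1 with 0 of ctsl.1 in both libraries, and mesenchyme had at most 1 UMI of each. In cut superficial epidermis 38 cells carried both transcripts, 80 ctsl.1 alone and 46 lygl1 alone. In uncut cells 3 carried both, 32 ctsl.1 alone and 35 lygl1 alone.

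**Figure D5:**
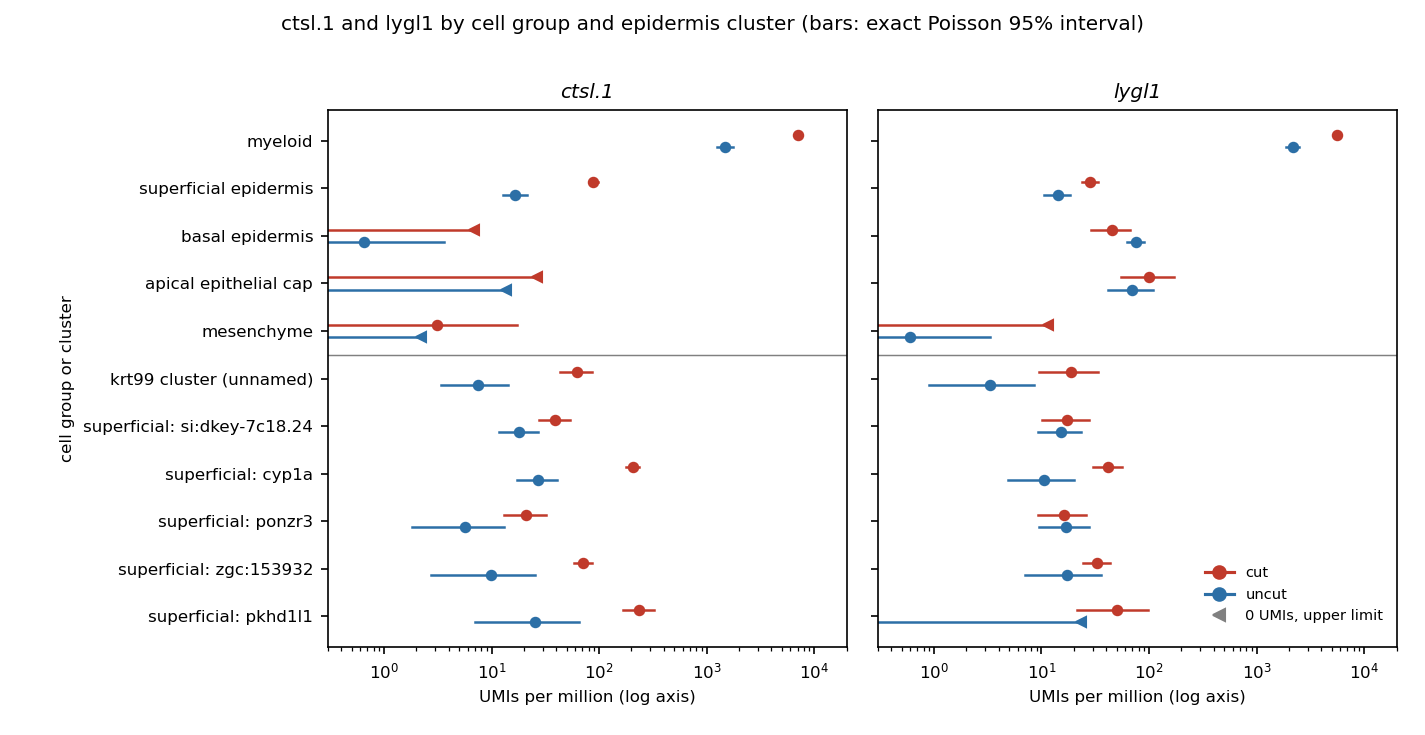
Level of ctsl.1 and lygl1 in UPM (log axis) in the 5 cell groups and, below the line, in the epidermis clusters, with bars for the Poisson 95% interval and triangles for the upper limit where 0 UMIs were counted. ctsl.1 lies to the right in the cut library in myeloid cells (7076 against 1484 UPM) and in every superficial cluster, and lygl1 alone is detected in both libraries of basal epidermis and the apical epithelial cap.

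In the apical epithelial cap 4 of 5 tested cathepsins were higher in the cut library. Of 6 genes tested 5 had a ratio above 0 and 4 were at least 2-fold higher. Over all 889 genes tested 51.5% had a ratio above 0, 10.3% were 2-fold higher, 9% lower, and the median was 0.02. ctsla was at 3419 UPM (3118 to 3741; 474 UMIs) in 18 cut cells and 1271 UPM (1141 to 1412; 347 UMIs) in 35 uncut cells, a log2 ratio of 1.43 (1.22 to 1.63). Single cells ran from 203 through a median of 2473 to 9823 UPM in cut and from 0 through 1306 to 5797 UPM in uncut cells, so the cells overlapped while the cut median was higher. ctsk was at 296 UPM (41 UMIs) against 69.6 UPM (19 UMIs), a log2 ratio of 2.09 (1.27 to 2.95), ctsd at 404 against 158 UPM (1.36, 0.76 to 1.97) and ctsba at 296 against 136 UPM (1.13, 0.45 to 1.81). Single cells weighed on these: 1 cut cell held 13 of the 41 ctsk UMIs and 1 held 19 of the 56 ctsd UMIs. Without the top cell of each library ctsla stood at 1.31, ctsd at 0.88 and ctsba at 0.94, and ctsk no longer had 50 UMIs. Of the 4 cathepsins only ctsla was then still called higher. The group's marker genes differed between the libraries as well. Cap markers summed to 73234 UPM in cut and 29948 UPM in uncut cells (11 of 11 detected in both), mesenchyme markers to 11368 and 22786 UPM, superficial epidermis markers to 837 and 2898 UPM and neuromast markers to 1839 and 176 UPM. Their part in the cathepsin ratios was not tested. atp6v0ca, the only pump subunit tested here, was at 397 against 205 UPM (0.95, 0.39 to 1.51), and ctsf at 195 against 238 UPM (-0.29).

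Mesenchyme showed small shifts toward the cut library. All 14 genes tested had a ratio above 0, as did 62.7% of all 2990 genes tested. At least 2-fold higher were 3 of the 14, with 6.72% of the 2990 genes higher and 4.75% lower. The median was 0.49, and 0.15 over all genes. The 3 genes were counted in few molecules: atp6v0cb, a second ring subunit gene, at 55.8 UPM (18 UMIs) against 19.9 UPM (33 UMIs, log2 ratio 1.49, 0.57 to 2.36), atp6v0e1 at 62.0 against 27.7 UPM (1.16), and ctsf at 43.4 against 21.7 UPM (1.0). With the top cell of each library left out 0 of 12 were 2-fold higher, and with 30 principal components in the clustering 0 of 21, with ctsf at -0.59. atp6v0cb had 0 UMIs in the myeloid cells of both libraries, where its paralog atp6v0ca was the most abundant subunit. Markers moved in this group too. Its own markers summed to 16761 UPM in cut and 26824 UPM in uncut cells (12 of 12 detected in both), pigment cell markers to 3187 (4 of 8) and 72.9 UPM (3 of 8), neural crest and glia markers to 1549 (5 of 8) and 47 UPM (7 of 8), neuron markers to 412 and 68.6 UPM (7 of 7 in both) and notochord markers to 142 and 1056 UPM, and their part in these ratios was not tested. The better counted ctsla (573 against 331 UPM, 0.79, 0.55 to 1.04) and ctsk (217 against 149 UPM, 0.54, 0.13 to 0.93) were higher by less than 2-fold. ctsk had a higher level in a cluster led by ecrg4a and hapln1a, at 897 UPM (91 UMIs) in cut and 392 UPM (121 UMIs) in uncut cells. That cluster had 9 of 12 mesenchyme markers raised, as many as the mesenchyme group, and was left unnamed because msx3, a marker of the cap, was among its 10 leading genes. Another cluster that stayed unnamed, led by ucp1, tat and pah, held 39 cut and 112 uncut cells. It also had 9 of 12 mesenchyme markers raised. With such unnamed clusters added to the group whose markers they carried, mesenchyme held 98 cut and 274 uncut cells. It then had 18 of 22 genes above 0 and 1 at least 2-fold higher.

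In basal epidermis 3 of 13 genes tested had a ratio above 0, 0 were 2-fold higher and 2 were lower. Over all 2490 genes tested 53.9% had a ratio above 0, 6.43% were 2-fold higher and 5.66% lower. The 2 lower genes were ctsf, at 24.3 UPM (13 UMIs) against 71.2 UPM (110 UMIs, -1.55, -2.51 to -0.72), and lamp1a, at 18.7 UPM (10 UMIs) against 43.3 UPM (67 UMIs, -1.22, -2.34 to -0.25). With the 3 clusters of the group weighted equally ctsf stood at -0.68. At a clustering resolution of 2 the group was smaller and 0 of 4 genes were 2-fold lower. lygl1 was at 44.8 UPM (24 UMIs) against 75.7 UPM (117 UMIs, -0.76, -1.45 to -0.11), and at 0.73 with the clusters weighted equally. That turn rested on 5 UMIs in 6 cut cells of the col5a3b cluster (304 against 95.7 UPM), while lygl1 was lower in the cut library in the other clusters (43.2 against 76.5 UPM and 9.74 against 43.3 UPM). ctsla was at 401 against 510 UPM (-0.34). The median depth of the cut and uncut cells of this group differed, 2679 against 13236 UMIs, and so did their clusters. Of 71 cut cells 43 lay in a cluster with a median of 2645 UMIs, and of 125 uncut cells 81 lay in one with a median of 15488 UMIs. The part of depth and cluster in these ratios was not tested.

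Summed over all cells of a library, 24 of 32 genes had a ratio above 0, 5 were at least 2-fold higher and 0 lower. Over all 8439 genes tested 55.3% had a ratio above 0, 2.51% were 2-fold higher and 7.61% lower. ctsl.1 reached 266 UPM (1964 UMIs) in cut and 20 UPM (209 UMIs) in uncut fins, a log2 ratio of 3.74 (3.53 to 3.95), and lygl1 188 against 39.0 UPM (2.27). ctss2.1 (21.0 against 8.99 UPM, 1.23), ctss2.2 (78.1 against 34.3 UPM, 1.19) and ctsc (41.9 against 20.6 UPM, 1.03) were the others. In such sums more cells of a type and more RNA per cell cannot be told apart. With each cluster given its mean share of cells over both libraries the ratios were 2.33 for ctsl.1, 1.17 for lygl1, 0.44 for ctsc, 0.16 for ctss2.2 and -0.47 for ctss2.1, so 2 of the 5 stayed 2-fold higher and ctss2.1 changed sign. ctsla, the most abundant cathepsin of the fin, was at -0.06 over all cells, with ratios of 1.44 in myeloid cells and -0.64 in superficial epidermis beneath it.

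The wider set of 90 lysosomal genes outside these families (other hydrolases and activators, membrane proteins and transporters, sorting and transcription factors, cystatins and lysozymes) was counted in the same way. In myeloid cells 17 of 20 tested were above 0, 4 were 2-fold higher and 1 lower, beside 17.5% and 3.57% of all 645 genes, with a median of 0.46. Those higher were grn1, a progranulin-type gene (493 against 113 UPM, log2 ratio 2.12), atp6ap1b, an accessory protein of the pump (268 against 90.6 UPM, 1.56), cst14b.1, a cystatin and so a member of a family of cathepsin inhibitors (460 against 170 UPM, 1.44), and lamtor5 of the Ragulator complex on the lysosome surface (503 against 215 UPM, 1.22). The lower gene was lyz, the neutrophil lysozyme, at 14.1 UPM (3 UMIs) against 6694 UPM (591 UMIs, from 1 cell). In superficial epidermis 15 of 60 were above 0, beside 67.5% of all 5755 genes, with 0 beyond 2-fold either way and a median of -0.13. Over all cells, among genes with at least 200 UMIs, the highest ratios were those of the sorting receptor m6pr (0.52), lamtor5 (0.48), the fucosidase fuca2 (0.44), the saposin precursor psap (0.40) and cst14b.1 (0.36). The lowest were lyz (-6.73), the tetraspanin tspan7 (-1.15), the transcription factor tfe3a (-0.48), the membrane protein tmem106ba (-0.38) and the tethering subunit vps18 (-0.30). Below 200 UMIs, grn1 (3.80) and its relative grna (2.23) were 2-fold higher over all cells, and the membrane protein genes laptm4b (-1.27) and scarb2a (-1.06) 2-fold lower. In all, 2 of the 72 genes tested over all cells were 2-fold higher and 4 lower, beside 2.51% and 7.61% of all 8439 genes.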

How the data were processed

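Both deposited libraries of raw UMI counts per gene and cell were used as the authors made them: per the labels and the study's methods, Cell Ranger 3.1.0 with default options, danRer11 and 3′ reads, with 1 pooled library per condition. The authors' aggregated matrix, brought to a common depth, was not used. The genes and lists were chosen with earlier results of these data known, and the limits for naming clusters were set after the data were seen.

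Cells of both libraries were clustered together without the 39 genes (Leiden 0.10.2, resolution 1, 15 neighbours, 15 principal components of log-scaled counts). A cluster was named when at least 3 markers of a type were raised by 0.5 on the log2 scale and seen in 25% of its cells. A cluster stayed unnamed where this failed, where its 10 leading genes held more markers of another type than of its own, or where its median depth times 3 was under that of its libraries with no own marker among those 10. No doublet caller was run, and cells over 3 times the median depth were left out as an alternative. UMIs were summed per group and library and divided by all UMIs of the group (UPM, with exact Poisson 95% intervals). Log2 ratios carry exact conditional binomial intervals. A gene was tested with at least 50 UMIs over both sides of a comparison and called at 2-fold. Intervals cover counting error only. For shares of cells, each cell was thinned to 2000 UMIs. The procedure was tested on simulated data.

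Genes were named in the text when they were past 2-fold in a group, among the 6 highest of a group, or at either end of the myeloid to epidermis ratio. Of other lysosome genes, those named were the 5 at each end over all cells with at least 200 UMIs and those past 2-fold in myeloid cells. Genes named beside a count as exceptions were chosen after their values were seen. Each alternative changed 1 choice: members kept in the clustering, Leiden resolution, principal components, equal weighting of cells or clusters, the top cell, cell depth, the UMI minimum, the fold, thinning, haemoglobin and keratin in the denominator, and marker-bearing cells. Leaving out marker-bearing cells, adding unnamed clusters and weighting clusters equally were chosen after seeing the data.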

Additional observations from a re-analysis of the deposited data

Results flagged for a closer look

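Several genes had cut to uncut ratios that lay past 2-fold in one cell group and had the opposite sign in another, with counting intervals on opposite sides of 0; none of these differences between groups was tested, as there was 1 library per condition. For ctsla the log2 ratio was 1.44 in myeloid cells and 1.43 in the apical epithelial cap, against -0.64 in superficial epidermis and -0.34 in basal epidermis. For lygl1 it was -0.76 in basal epidermis, against 1.37 in myeloid cells and 1.02 in superficial epidermis. The basal value turned to 0.73 with the clusters weighted equally, which rested on 5 UMIs in 6 cut cells. In the apical epithelial cap ctsd was at 1.36 and ctsba at 1.13, while in superficial epidermis they were at -0.53 and -0.49. The V1 subunit atp6v1h was at 1.54 in myeloid cells and -0.30 in superficial epidermis, and the V0 subunit atp6v0e1 at 1.16 in mesenchyme and -0.43 in superficial epidermis.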

How the results depend on the processing

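Under every alternative run, most members were above 0 in the myeloid group and below 0 in superficial epidermis, while counts past 2-fold moved. With 50 UMIs as the minimum, the myeloid count of 9 of 22 became 16 with cells weighted equally, 16 at 1.5-fold and 3 of 9 at 200 UMIs, where 8 were above 0. The superficial epidermis count of 2 became 1 without the top cells, with cells of at least 3000 UMIs, at 200 UMIs (1 of 24, with 2 above 0) or without marker-bearing cells. The basal count of 2 lower became 4 with cells weighted equally, without top cells or at 1.5-fold, 1 of 1 at resolution 0.5 and 0 of 4 at resolution 2 or at 200 UMIs. The apical epithelial cap count of 4 became 2 of 5 without top cells and 1 of 1 at 200 UMIs. Without top cells only ctsla of the 4 genes was still called, so the other gene called was not among them. Resolution 0.5 gave no such group and so no value. The mesenchyme count of 3 became 0 of 5 with the members kept in the clustering or at 200 UMIs (5 above 0 in both), 0 of 21 with 30 principal components, 0 of 12 without top cells, 1 of 12 at 3000 UMIs or without cells over 3 times the median, 1 of 22 at resolution 0.5 or with unnamed clusters added, and 6 at 1.5-fold. The count over all cells fell from 5 to 2 with each cluster given its mean share. ctsl.1 shares in superficial epidermis moved from 9.37% to 15.8% (4000 UMIs) and 31.6% (not thinned) in cut, and from 4.67% to 16.4% (not thinned) in uncut cells. Among ratios past 2-fold, signs reversed for ctss2.1 over all cells (-0.47, clusters weighted by mean share) and ctsf in mesenchyme (-0.59, 30 principal components). Ratios under 2-fold that changed sign included lamp1a in myeloid cells (0.79 without top cells) and lygl1 in basal epidermis (0.73, clusters weighted equally). The cause was not tested. No paired analysis was possible because each condition had 1 library. In the 11 uncut myeloid cells several genes rest on 10 to 50 UMIs, in some cases mostly from 1 cell. The same uncut cell held the most UMIs of ctsl.1, lygl1, ctsba, atp6v0ca and ctss2.1. Genes under the minimum could not be compared, and the apical epithelial cap allowed 6 of 39 members.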
